A study of Mus musculus with 7 samples.

Results

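The data described here are 4 RNA-seq libraries of pancreatic islets isolated from control mice, out of 7 libraries in the series. They were chosen by label: every library whose count column is named as a control on high-fat diet (HFD) was taken, and they carry the animal tags Q821, Q952, R037 and S214, called control 1, control 2, control 3 and control 4. The mice had been fed a diet with 60% fat for 15 weeks before isolation, and the islets then rested 24 hours in RPMI-1640 medium with serum. Their genotype is labelled Control only: the labels do not name the driver line, floxed alleles, age, sex or litter. The other 3 libraries come from beta-cell specific Traf6 KO mice on the same diet and enter below only in a check of the labels and beside 1 hormone ratio. Each tag was taken as 1 mouse, and no group on another diet was used, so that nothing here measures an effect of the diet.

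Pancreatic islets are clusters of endocrine cells scattered through the exocrine pancreas. Beta cells make insulin and release it when blood glucose rises, alpha cells make glucagon, delta cells somatostatin and gamma cells pancreatic polypeptide, and each hormone is stored as a precursor in dense-core granules together with granin proteins and processing enzymes. Isolated islets also carry endothelial cells, macrophages, stellate cells and a variable amount of the surrounding acinar tissue, whose cells fill themselves with digestive zymogens.

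Total counts were 29917292, 27497398, 27213834 and 22161097 in control 1 to 4. A count scaled to a common library total (CPM) of at least 1 on plain totals was reached by 13510 to 14593 genes in single libraries and by 13062 genes in every library, of 55487 identifiers in the table. Scaling factors (TMM, which match the bulk of genes between libraries) were 0.802, 1.09, 1.05 and 1.09, and control 1 stood apart with the low one. A CPM on plain totals is therefore shifted by -0.32 (log2) in control 1 and by 0.12, 0.07 and 0.13 in control 2 to 4 against the scaled CPM used below, and the order of the libraries for a gene list is given with both scalings where it differs. Markers of alpha, beta and delta cells (Gcg, Ins2, Ins1, Iapp and Sst) were among the 20 protein-coding genes of highest level per length, as an islet label requires. Acinar enzyme genes held 20.1%, 0.478%, 0.455% and 3.22% of the counts of control 1 to 4, so that control 1 stands apart in exocrine RNA and the library labelled control 4 to a smaller degree. In bulk samples, fewer cells of a type and less RNA per cell cannot be told apart. Y-linked Ddx3y, an RNA helicase gene, was counted in all libraries, at 43.9, 49.3, 44.9 and 45.6 CPM.

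The label of control 4 is not clearly borne out by Traf6, the gene that the series deletes. On totals without acinar enzyme and Reg genes, Traf6 stood at 21.6, 33.4, 27.9 and 16.7 CPM in control 1 to 4 and at 17.3, 20.2 and 19.9 CPM in the 3 Traf6 KO libraries, so the library labelled control 4 had the lowest value of all 7. On plain totals it stood at 16.2 CPM in the library labelled control 4, below 17.1, 33.3 and 27.8 CPM in the other controls, and between the 7.37, 11.4 and 19.6 CPM of the Traf6 KO libraries. The 17.1 CPM of control 1 also lay between these KO values. Without acinar enzyme and Reg genes control 1 lay above all 3 KO libraries, by little. Since islets hold other cells besides beta cells and the deleted part of the gene is not in the labels, a whole-gene count is only a coarse check. The animal tag of the library labelled control 4 is the only one of the 4 that begins with S, and a Traf6 KO library has such a tag too. The other Traf6 KO libraries have tags that begin with Q, as have control 1 and another control. The tag of control 3 is likewise the only one with an R. What the letter stands for is not in the labels, so nothing is drawn from the tags. Because of its Traf6 values, the S-tagged control is called the library labelled control 4. Results that rest on it are given with and without it.

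A small number of genes held much of the islet RNA. Ins2, which encodes the major mouse insulin precursor, took 11.9%, 13.3%, 15.4% and 15.2% of all counts in control 1 to 4 (13.9% ± 1.66, SD, n = 4). The 10 most counted genes of each library together took 32.9%, 28.4%, 30.6% and 28.9% (30.2% ± 2.03, SD, n = 4). Thus the top 10 weighed about the same in all 4 libraries, but it did not hold the same genes. On plain totals 13, 6, 6 and 7 genes reached 10000 CPM in control 1 to 4. Those of control 1 included acinar genes such as Ctrb1. Further down the libraries parted more: 50% of counts lay in 48 genes in control 1, but in 388, 312 and 323 genes in the next 3 libraries. With acinar enzyme and Reg genes left out these numbers were 247, 383, 308 and 364. The top 100 genes held 54.3% of counts in control 1 and 39.5% to 41.8% in the other 3, and 44.1% in control 1 once the exocrine genes were set aside.

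**Figure D1:**
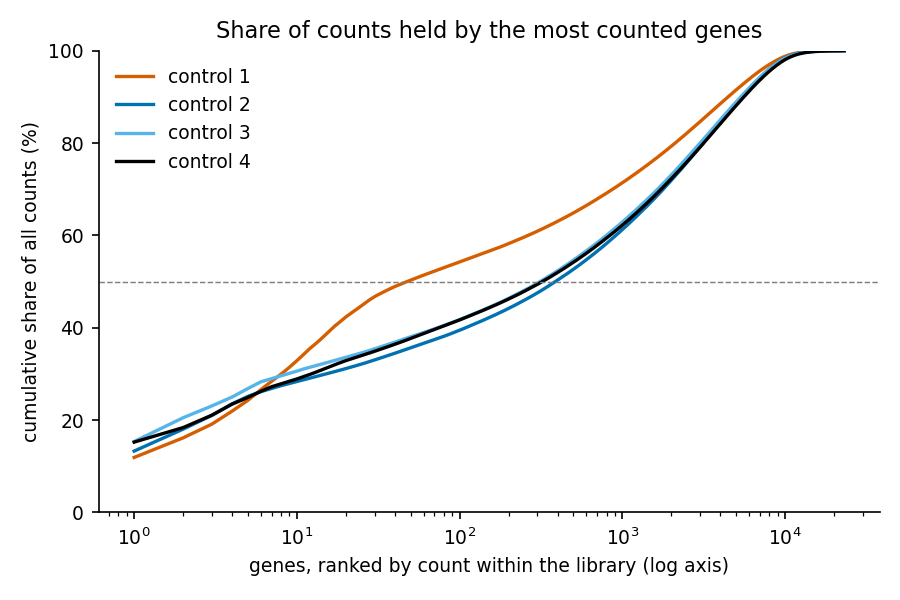
Cumulative share of all counts (y axis, percent) against the number of genes ranked by count within each library (x axis, log scale), 1 line per control library, with a dashed line at 50%. The lines start together at Ins2, and control 1 reaches 50% with 48 genes while control 2, 3 and 4 need 388, 312 and 323.

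By annotated class, nuclear protein-coding genes held 95.1% ± 1.00 of counts (SD, n = 4). Messenger RNAs of the mitochondrial genome held 2.06% ± 0.708, at 1.43%, 1.86%, 1.87% and 3.08% in control 1 to 4. The library labelled control 4 was the high one. Some of these genes, among them mt-Co2, mt-Co3 and mt-Atp6, were counted low beside near-identical nuclear copies, as described below. The share may therefore be too low. Small and structural RNAs held 1.38% ± 0.210, nearly all of it from 1 ribosomal RNA entry, CT010467.1, at 1.43%, 1.02%, 1.44% and 1.31%. Long non-coding RNAs took 1.00% ± 0.229 and pseudogenes 0.236% ± 0.0340. Segments of immunoglobulin and T-cell receptor genes took 0.00550%, 0.0136%, 0.0369% and 0.0506%.

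The hormones led the ranking per length. Levels of different genes are compared here as TPM, the count per kilobase of annotated exon scaled to the sum of all genes in a library. Ins2 (chromosome 7, 142678656 to 142743381, minus strand, GRCm38) was first in all 4 libraries, at 171027, 233782, 256856 and 254629 TPM (229073 ± 40068, SD, n = 4). Ins1, the second insulin gene (chromosome 19, 52264297 to 52265476, plus strand), was second in all 4, at 75353, 103374, 106535 and 55132 TPM. The library labelled control 4 had the lowest Ins1, while its Ins2 was the second highest per length. Glucagon, Gcg (chromosome 2, 62474530 to 62483650, minus strand), stood at 35689, 45997, 28355 and 46200 TPM, and Iapp, the amyloid peptide that beta cells release with insulin (chromosome 6, 142298423 to 142303961, plus strand), at 28720, 38005, 41560 and 32558 TPM. Gcg and Iapp changed places between libraries: Gcg was above Iapp in control 1, 2 and 4 and below it in control 3, so their order does not hold beyond the spread.

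Upstream sequences are shown because Ins1 and Gcg lead the beta-cell and the alpha-cell hormones that have an entry in the RefSeq promoter table (GRCm38.p6). Each is the 250 bases before the annotated start, 5′ to 3′ on the gene's strand, at chr19:52264047-52264296 for Ins1 and chr2:62483654-62483903 for Gcg. Capitals mark matches to the insulin E box GCCATCTG or to the TATA box TATAAA, searched on both strands (their reverse complements are CAGATGGC and TTTATA).
Ins1: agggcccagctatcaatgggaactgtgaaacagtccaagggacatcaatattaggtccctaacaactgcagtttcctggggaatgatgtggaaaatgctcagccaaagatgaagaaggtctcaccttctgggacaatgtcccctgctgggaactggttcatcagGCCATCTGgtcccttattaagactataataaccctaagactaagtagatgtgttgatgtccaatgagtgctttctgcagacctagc
Gcg: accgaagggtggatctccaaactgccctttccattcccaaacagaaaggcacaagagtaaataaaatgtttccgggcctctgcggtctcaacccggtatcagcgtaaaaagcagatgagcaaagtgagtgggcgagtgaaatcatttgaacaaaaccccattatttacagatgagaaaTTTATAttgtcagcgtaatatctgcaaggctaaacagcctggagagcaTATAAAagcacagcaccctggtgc
The E box stood once in the Ins1 window, starting 86 bases before the annotated start, and in 1.11% of all 32851 promoter windows of this length. TATAAA or its reverse complement stood at 2 places in the Gcg window and in 12.4% of all windows. Another motif, the cAMP response element TGACGTCA, is in neither window and in 1.55% of all. These matches describe letters in a window and say nothing of binding in these islets.

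The remaining hormones were lower. Somatostatin, Sst, stood at 12209, 11369, 15882 and 15607 TPM, pancreatic polypeptide, Ppy, at 5858, 9487, 11759 and 6021 TPM, and peptide YY, Pyy, at 3805, 4185, 5061 and 4102 TPM. In every library Sst was above Ppy and Ppy above Pyy, although the ranges of Sst and Ppy over the libraries overlap. Ghrelin, Ghrl, the hormone of the rare epsilon cells, was far below at 3.50, 4.12, 5.23 and 26.7 TPM, with the library labelled control 4 the high one. Other islet peptides were listed at low levels: of 16 such genes 6 reached a mean CPM of 1, led by urocortin 3, Ucn3, at 870 ± 203 TPM (SD, n = 4). Galanin, Gal, stood at 57.0, 0.267, 0.490 and 2.65 CPM and was high in control 1 alone.

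**Figure D2:**
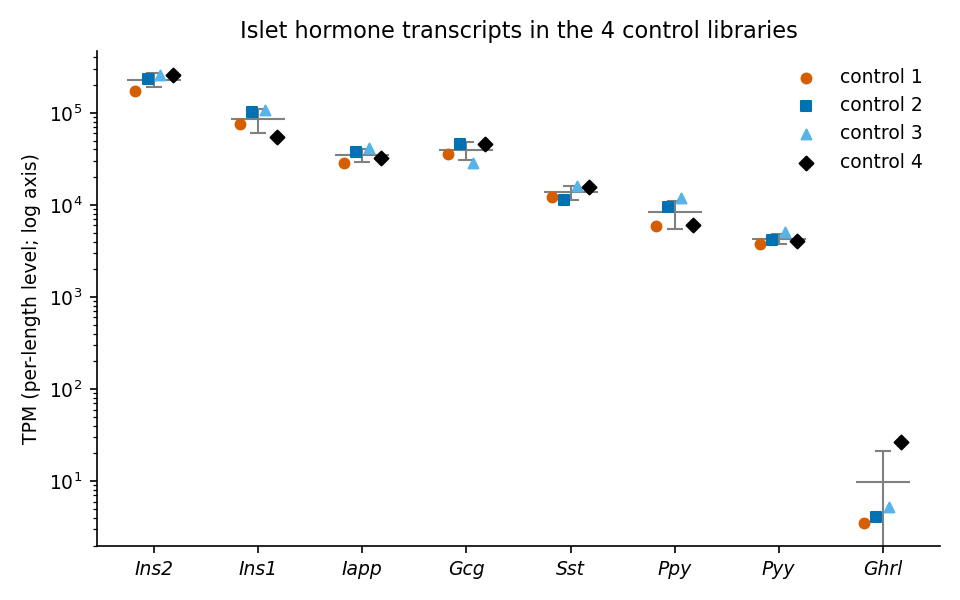
Level per length (TPM, log axis) of 8 islet hormone genes; each symbol is 1 control library, and the grey line and bar give the mean and SD over the 4. Ins2 and Ins1 are the 2 highest genes in each library, Gcg and Iapp overlap, and Ghrl lies lowest with the library labelled control 4 above the rest; the SD of Ghrl is larger than its mean, so its lower bar runs off the log axis.

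Ratios of hormones within a library do not depend on scaling. Ins1 over Ins2 per length was 44.1%, 44.2%, 41.5% and 21.7%, so the library labelled control 4 had a share of Ins1 well under the other 3, which lay close together. As counts, without the length, the same ratio was 35.7%, 35.8%, 33.6% and 17.5%. Iapp over Ins2 was 16.8%, 16.3%, 16.2% and 12.8%, again lowest in the library labelled control 4. Gcg over Ins2 was 20.9%, 19.7%, 11.0% and 18.1%, and here control 3 was the low one. For Sst over Ins2 the values were 7.14%, 4.86%, 6.18% and 6.13%, lowest in control 2, and for Ppy over Ins2 3.43%, 4.06%, 4.58% and 2.36%. A different library was therefore lowest for the alpha, the delta and the 3 other ratios. As scaled CPM, Ins1 differed 2.17-fold between the highest and the lowest library (52947, 43706, 49156 and 24455 CPM). The order of libraries for the hormones depends on the scaling: on scaled CPM Ins2 stood at 148463, 122108, 146414 and 139536 CPM and was highest in control 1, as were Ins1, Iapp and Gcg, while by share of plain totals Ins2, Ins1 and Iapp were highest in control 3 and Gcg, at 2.83%, 2.98%, 1.93% and 3.15%, in the library labelled control 4. The fold of Ins1 was 1.93 on plain totals and 1.21 without the library labelled control 4. The mean ratio of Ins1 to Ins2 per length was 37.9% ± 10.9 (SD, n = 4) and 43.3% without the library labelled control 4, whose count ratio of 17.5% lay beside the 17.0%, 17.5% and 16.65% of the 3 Traf6 KO libraries; this likeness was not tested.

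Among the 20 protein-coding genes of highest level per length were 7 hormone genes (counting Ins2, Ins1, Iapp, Gcg, Sst, Ppy and Pyy), 2 granins, 4 mitochondrially encoded genes and 7 genes of acinar origin. Chga, chromogranin A, the core protein of dense-core granules, stood at 12533, 21053, 20298 and 19154 TPM, and Scg2, secretogranin 2, at 5293 ± 1257 TPM (SD, n = 4). mt-Co1, the catalytic subunit of cytochrome oxidase, stood at 5677, 9090, 8767 and 14304 TPM. The acinar members were far higher in control 1 than elsewhere: Ctrb1, chymotrypsinogen B, stood at 63543 TPM there and at 1802, 1527 and 11405 TPM in control 2 to 4, which ranked it at 3, 24, 29 and 11 among all genes. Leaving out any 1 library kept 15 to 18 of the 20, and ranking by counts instead of TPM kept 13.

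Granule proteins and processing enzymes, which package and mature the hormones, were the next abundant group of the secretory pathway. The 13 granins and granule proteins together took 3.67%, 4.79%, 4.92% and 4.27% of counts, and the 10 prohormone processing genes 1.39%, 1.66%, 1.70% and 1.47%. Cpe, carboxypeptidase E, which trims the basic residues left by the convertases, stood at 3445 ± 541 TPM and the convertase Pcsk2 at 1222 ± 176 TPM (SD, n = 4). Pcsk1n, the proSAAS precursor, varied little, at 1956, 2037, 2134 and 2063 CPM, and so did Chga at 22853, 23099, 24305 and 22048 CPM. On the scaled CPM 11 of the 13 granule genes were lowest in the library labelled control 4, against 33.8% of all genes tested. On plain totals 6 of them were lowest in the library labelled control 4 and 7 in control 1, so this order depends on the scaling.

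Gene-wise spread among the 4 libraries was then taken over 14184 genes with a mean CPM of at least 1, as the SD of log2(CPM + 1). Its median was 0.16, with a 10th percentile of 0.07 and a 90th of 0.40. The highest library was at least 2-fold the lowest in 1191 genes (8.4% of those tested) and at least 4-fold in 321 (2.26%). Counting error alone was exceeded in 10688 genes (75.4%; edgeR Poisson fit, Benjamini-Hochberg adjusted p under 0.05). This sets the libraries against counting noise alone, so the excess covers islet isolation and library preparation as well as the mice. The common biological coefficient of variation of edgeR was 0.273 and the median gene's 0.171. Without the library labelled control 4 the 2-fold count was 638 and the 4-fold count 189. Without control 1 the 4-fold count was 206. On plain totals the median SD was 0.25 and 1739 genes were 2-fold apart.

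Spread depended on level. Between a mean CPM of 1 and 10 the median SD was 0.24 over 4854 genes, and between 10 and 100 it was 0.13 over 7951 genes. From 100 to 1000 it stayed at 0.13 over 1316 genes. Among the 63 genes above a mean of 1000 CPM it was 0.34, and 34.9% of these were 2-fold apart. This last bin holds acinar genes that reach it through control 1, such as Ctrb1 described below. On plain totals 33 genes reached 1000 CPM in every library and 80 in at least 1.

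**Figure D3:**
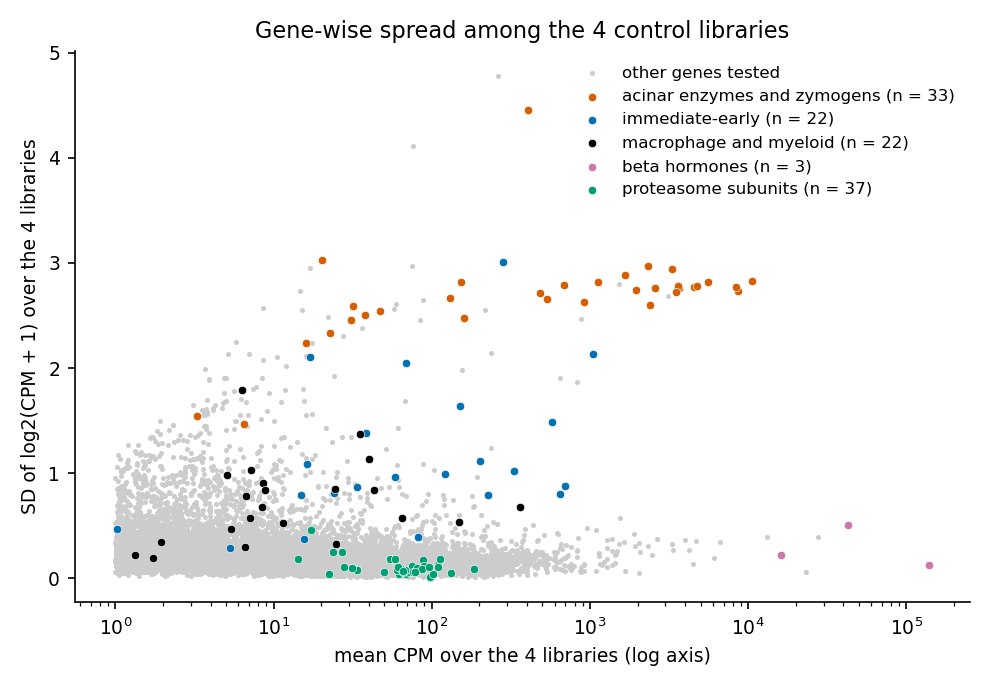
SD of log2(CPM + 1) over the 4 control libraries (y axis) against mean CPM (x axis, log scale), 1 point per gene tested, with 5 gene lists coloured. Acinar enzyme genes, many immediate-early genes and some myeloid genes lie far above the band of other genes, while proteasome subunits lie at its lower edge and the 3 beta-cell hormones at the far right.

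Pairs of libraries were unequal in distance. Control 2 and 3 were closest, with a median absolute log2 difference of 0.13 and 1.46% of genes 2-fold apart, and control 1 and 4 were farthest, with 0.22 and 5.29%. Genes in which 1 library stood at least 2-fold above each of the other 3 numbered 159 for control 1 (1.12% of genes tested), 4 for control 2 (0.0282%), 18 for control 3 (0.127%) and 186 for the library labelled control 4 (1.31%). Genes standing 2-fold below each of the others numbered 12 (0.0846%), 4 (0.0282%), 8 (0.0564%) and 18 (0.127%). Control 1 and the library labelled control 4 thus hold most of the genes with a single library apart, and they hold different lists, described next.

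The acinar genes were the most variable list. All 33 of those tested were at least 4-fold apart (2.26% of all genes tested), with a median SD of 2.74. In all 33 control 1 was at least 2-fold above each other library (1.12% of all genes tested). Ctrb1 stood at 36913, 630, 582 and 4183 CPM. Cela2a, an elastase, stood at 29195, 569, 567 and 4345 CPM, and the lipase Pnlip at 28587, 514, 510 and 3757 CPM. The libraries fell in the same order for each of these: control 1 far above, the library labelled control 4 next, and control 2 and 3 low and close. Prss3, a trypsinogen, had the largest SD of any acinar member, 4.46, at 1602, 1.604, 1.12 and 10.5 CPM. Trypsinogen genes are near-identical copies, and the 31-base words of Prss3 are shared to 73.7% with Gm10334 and to 37.5% with Gm5771, so the value of a single copy is uncertain. Without control 1 the median SD of the list was 1.48 and its mean share of counts fell from 6.07% to 1.38%.

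Genes named for regeneration went with the acinar genes. Reg1, a secreted lectin-like protein made by acinar cells, stood at 5524, 87.2, 92.6 and 427 CPM, and all 5 Reg genes tested were at least 4-fold apart (2.26% of all genes tested). Reg2 was high in both control 1 and the library labelled control 4, at 333, 32.6, 20.6 and 238 CPM. The Reg share was 0.481%, 0.0144%, 0.0123% and 0.0782% of counts, and its mean fell from 0.146% to 0.0350% without control 1. Acinar transcription factors were much lower in level: Rbpjl, a subunit of the acinar PTF1 complex, stood at 123, 3.17, 2.52 and 16.5 CPM, and Ptf1a itself at 12.5, 0.702, 0.140 and 0.827 CPM. In this list 5 of 7 genes were 2-fold apart (8.4% of all genes tested), and 1 of 7 without control 1. Of the 7 genes 4 had a mean under 10 CPM, and of all genes between 1 and 10 CPM 18.05% were 2-fold apart. The ductal or mucosal genes Tff2, at 305, 4.95, 5.92 and 35.3 CPM, and Muc1, at 38.0, 2.11, 1.54 and 5.62 CPM, ran likewise, while the epithelial adhesion gene Epcam was among the least variable of all, at 188, 187, 190 and 187 CPM. Most ductal genes did not: of 16 tested 2 stood at least 2-fold above each other library in control 1 (1.12% of all genes tested). In all 5 were 2-fold apart (8.4%), and on plain totals 3 were highest and 8 lowest in control 1. Nupr1, a stress-response gene, stood at 806, 46.0, 27.5 and 71.4 CPM and Casp9, an initiator caspase, at 197, 15.2, 15.9 and 42.0 CPM. Both were highest in control 1 beside its acinar genes, whose part in these values was not tested.

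**Figure D4:**
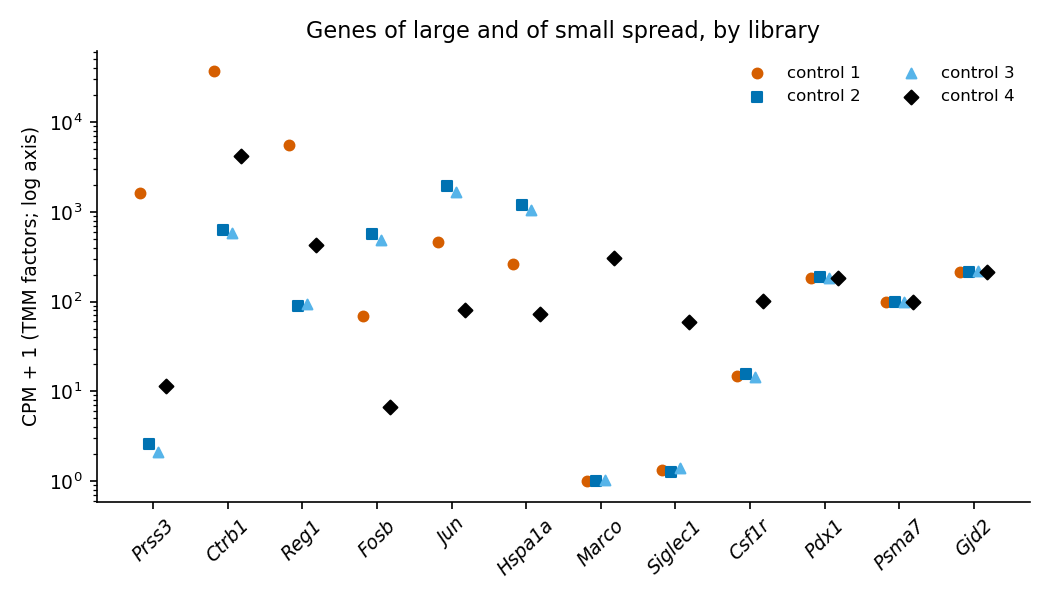
CPM + 1 with TMM factors (y axis, log scale) of 12 genes in the 4 control libraries. Prss3, Ctrb1 and Reg1 are highest in control 1, Fosb, Jun and Hspa1a in control 2 and 3, Marco, Siglec1 and Csf1r in the library labelled control 4, and Pdx1, Psma7 and Gjd2 are nearly level.

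Immediate-early genes, which cells switch on within minutes of a stimulus, formed the next most uneven list of at least 20 genes. Of 22 tested, 19 were 2-fold apart (8.4% of all genes tested), 10 were 4-fold apart (2.26%), and the median SD was 0.98. Fosb, an AP-1 subunit, stood at 67.5, 569, 485 and 5.62 CPM. Jun stood at 464, 1939, 1679 and 79.3 CPM, and Fos at 230, 1041, 896 and 127 CPM. The pattern was the same in all 3, with control 2 and 3 high and close together, control 1 lower and the library labelled control 4 lowest. Egr1, a zinc-finger factor, differed in its order, at 255, 959, 891 and 663 CPM, and Nr4a1, an orphan nuclear receptor, was highest in the library labelled control 4, at 56.9, 186, 205 and 362 CPM. Across the list 19 of 22 genes were highest in control 2 or control 3, as were 44.1% of all genes tested, and this count was also 19 on plain totals. On the scaled CPM 13 of 22 were lowest in the library labelled control 4 (33.8% of all genes tested). On plain totals the lowest was control 1 for 16 of the 22 and the library labelled control 4 for 6. Together these genes took 0.173%, 0.812%, 0.723% and 0.228% of counts.

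Inducible heat-shock genes showed the same high libraries. Hspa1a stood at 265, 1192, 1054 and 71.5 CPM and Hspa1b at 333, 1584, 1306 and 99.0 CPM. The words of Hspa1a are shared to 63.8% with Hspa1b, so their sum is the safer value, and it was 598, 2776, 2360 and 171 CPM. The constitutive chaperone Hspa8 varied less, at 1161, 1396, 1447 and 1118 CPM, and the heat-shock list held 5 of 16 genes 2-fold apart (8.4% of all genes tested), or 3 without the library labelled control 4. Atf3, a stress-induced transcription factor, stood at 3.29, 36.0, 28.1 and 0.868 CPM, again with control 2 and 3 high. Chaperones of the endoplasmic reticulum, which fold the insulin precursor, had no gene 2-fold apart among 20. Hspa5, the main one, stood at 1476, 1961, 1967 and 1207 CPM. On the scaled CPM 19 of the 20 were lowest in the library labelled control 4 (33.8% of all genes tested), while on plain totals the lowest was control 1 for 16 and the library labelled control 4 for the other 4. Their median SD was 0.23, and 0.15 without the library labelled control 4.

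The library labelled control 4 was set apart by macrophage genes. Of 22 myeloid genes tested 20 were highest in the library labelled control 4 (27.5% of all genes tested), with either scaling, and 10 stood at least 2-fold above each other library (1.31%). Marco, a scavenger receptor of macrophages, was listed at 0, 0, 0.0350 and 303 CPM. Siglec1, the sialic acid-binding adhesion receptor of tissue macrophages, stood at 0.333, 0.267, 0.385 and 57.7 CPM, and Csf1r, the receptor for the macrophage growth factor, at 13.8, 14.5, 13.5 and 99.2 CPM. For all of these the first 3 libraries were close together and the library labelled control 4 was far above. Not every macrophage gene was so uneven: Cd74, the invariant chain of class II antigen presentation, stood at 208, 273, 347 and 627 CPM, and complement C1qa at 180, 100.0, 104 and 209 CPM. The myeloid list took 0.0466%, 0.0648%, 0.0699% and 0.162% of counts. Its number of genes 2-fold apart was 16 (8.4% of all genes tested), and 1 without the library labelled control 4, and its median SD fell from 0.67 to 0.20. Of the 22 genes 13 had a mean under 10 CPM, and of all genes between 1 and 10 CPM 18.05% were 2-fold apart.

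Other cells moved with the library labelled control 4 as well. Endothelial genes were highest there in 12 of 19 cases (27.5% of all genes tested), and in 16 on plain totals. Few were far apart: 2 of the 19 were 2-fold apart (8.4% of all genes tested), and the median SD was 0.22. The most variable was Cldn5, a tight-junction claudin, at 0.333, 0.0668, 0.175 and 15.0 CPM. It was the only 1 of the 19 at least 2-fold above each other library there (1.31% of all genes tested). Plvap, the fenestra protein of islet capillaries, stood at 236, 184, 231 and 208 CPM. All 5 globin and other erythrocyte genes tested were highest in the library labelled control 4; Hbb-bs stood at 65.2, 38.7, 24.9 and 115 CPM. The adhesion molecule Vcam1, which macrophages and activated endothelium can carry, stood at 1.17, 1.303, 1.37 and 27.2 CPM. The genes that beta cells normally keep off, called disallowed genes, had 12 of 21 members 2-fold apart and 7 without the library labelled control 4. The share over all genes was 8.4%, and 18.05% between 1 and 10 CPM; 12 of the 21 had a mean under 10 CPM. On the scaled CPM 10 of the 21 were highest in the library labelled control 4 (27.5% of all genes tested) and 8 in control 1 (28.4%). In the library labelled control 4, 4 stood at least 2-fold above each other library (1.31%). Among the uneven members highest in that library were Maf at 3.83, 1.20, 3.22 and 27.9 CPM, Igfbp4 at 8.33, 4.68, 4.41 and 27.4 CPM and Fcgrt at 6.54, 4.91, 7.85 and 26.5 CPM. These 3 genes are also made by macrophages or vascular cells, whose markers were higher in the same library, and their part in the values was not tested.

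Lymphocyte genes split the libraries in another way. All 15 tested were 2-fold apart (8.4% of all genes tested). Of the 15 genes 11 had a mean under 10 CPM, and of all genes between 1 and 10 CPM 18.05% were 2-fold apart. The highest library was control 3 for 10 of the 15 (20.6% of all genes) and the library labelled control 4 for 5 (27.5%). Control 1 was lowest for 11 of the 15 (27.5%). Igkc, the kappa light chain constant region, stood at 14.6, 25.7, 66.9 and 99.2 CPM, and Ighm, the heavy chain of IgM, at 3.33, 3.88, 28.2 and 29.0 CPM. The T-cell gene Cd4, which macrophages can also express, stood at 0.500, 0.334, 1.89 and 13.9 CPM. Control 3 and the library labelled control 4 thus held more B-cell RNA than control 1 and 2, although the whole list took only 0.00296%, 0.00569%, 0.0212% and 0.0247% of counts. Mesenchymal genes differed differently again: Col1a1, a fibrillar collagen chain, stood at 15.4, 9.22, 1.96 and 4.71 CPM, and 11 of 18 stellate and fibroblast genes were 2-fold apart, 4 without control 1 and 5 without control 3. Of these 18 genes 13 had a mean under 10 CPM, and of all genes between 1 and 10 CPM 18.05% were 2-fold apart.

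**Figure D5:**
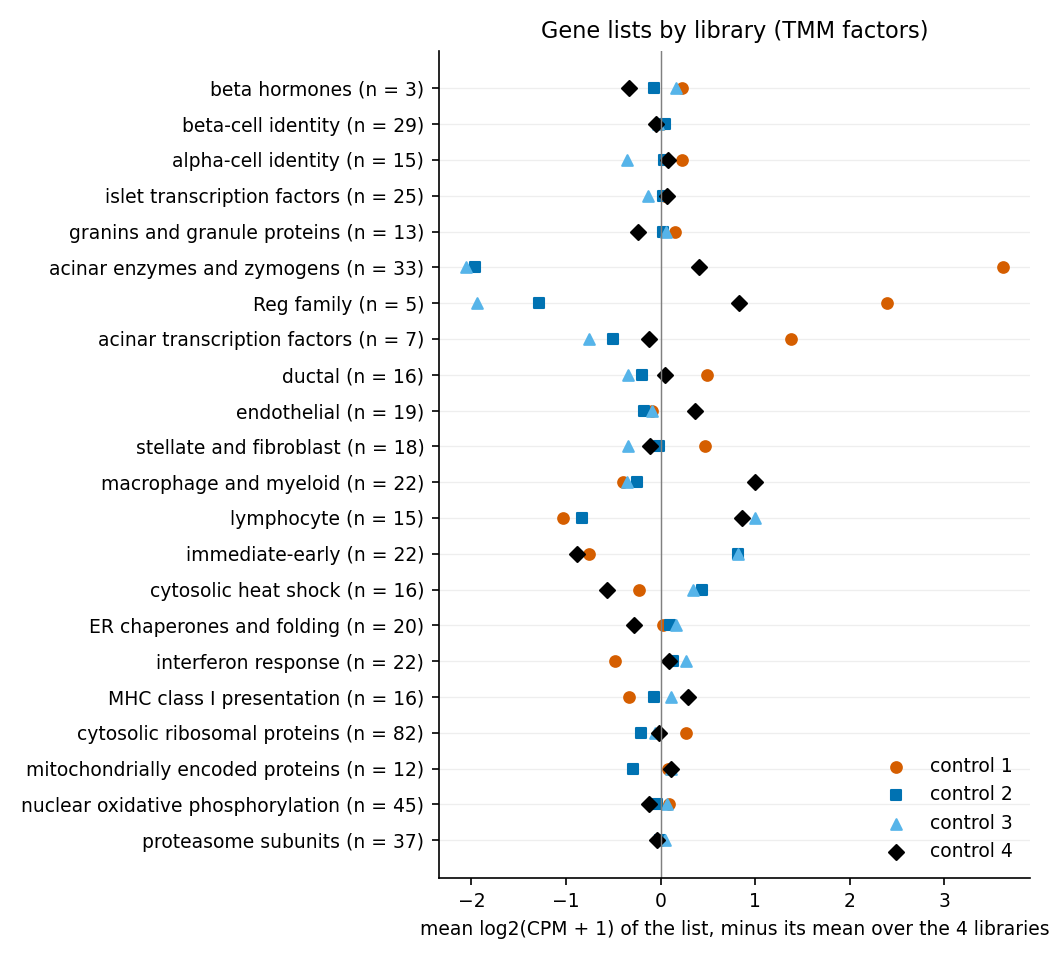
Mean log2(CPM + 1) of 22 gene lists in each control library, minus the list's mean over the 4 libraries (x axis), with the number of genes tested in brackets. Control 1 lies far right for acinar enzymes, Reg genes and acinar transcription factors, control 2 and 3 lie right for immediate-early and heat-shock genes, the library labelled control 4 lies right for myeloid genes, and beta-cell identity and proteasome lists are nearly level.

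By median SD, beta-cell identity genes varied about as much as other genes of their level. It was 0.13 over the 29 tested, as over all genes between 10 and 1000 CPM. Of these 29 genes 3 were 2-fold apart, 1 without control 3 and 0 without the library labelled control 4. The share was 8.4% over all genes tested, 3.01% between 10 and 100 CPM and 4.10% between 100 and 1000 CPM. The 3 genes were Ins1, Mafa and Npy, a peptide at 3.69 CPM on average, while several core factors were nearly level. Pdx1, the homeodomain factor that drives insulin transcription, stood at 180, 187, 180 and 181 CPM. Nkx6-1, a beta-cell repressor, stood at 729, 713, 672 and 662 CPM, and Gjd2, the connexin that couples beta cells electrically, at 213, 215, 217 and 212 CPM. Nkx6-1 had the largest highest over lowest of these 3, 1.102-fold; on plain totals that of Pdx1 was 1.41-fold, with control 1 then the lowest. Mafa, an insulin gene activator of mature beta cells, was uneven, at 876, 1077, 603 and 1303 CPM, with control 3 lowest and the library labelled control 4 highest. Its highest library was 2.16-fold the lowest, 1.49-fold without control 3 and 1.79-fold without the library labelled control 4. The glucose transporter Slc2a2 stood at 558, 622, 584 and 640 CPM and the incretin receptor Glp1r at 591, 647, 560 and 645 CPM, both without a library apart.

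Genes for glucose sensing and electrical activity had a median SD of 0.16, the same as all genes, and insulin exocytosis genes one of 0.13. None of the 25 and none of the 24 tested was 2-fold apart, against 8.4% of all genes and 3.01% of those between 10 and 100 CPM. The potassium channel Kcnk16 stood at 534, 510, 567 and 432 CPM and the calcium pump Atp2a2 at 1413, 1658, 1724 and 1158 CPM. Syt13, a synaptotagmin-like protein with a level of 663 ± 126 TPM (SD, n = 4), stood at 1222, 1128, 1242 and 1019 CPM. Among hormone and nutrient receptors 2 of 24 were 2-fold apart, Gper1 and Sstr1, both near 1 CPM. Dedifferentiation and progenitor genes were low: Neurog3, the endocrine progenitor factor, had 8.05 ± 1.90 TPM, and Aldh1a3 stood at 7.54, 3.21, 3.26 and 1.20 CPM, highest in control 1.

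Alpha-cell genes were low in control 3 together. Of 15 alpha-cell identity genes tested 12 were lowest in control 3, against 19.2% of all genes tested, and 10 on plain totals. Gcg stood at 35278, 27358, 18405 and 28829 CPM. Slc38a5, an amino acid transporter of alpha cells, stood at 49.7, 21.4, 8.86 and 19.1 CPM, and the homeobox gene Irx1 at 39.9, 28.4, 18.7 and 35.3 CPM. Not every member followed: Ttr, transthyretin, stood at 1552, 778, 1179 and 847 CPM and Gc, the vitamin D-binding protein, at 159, 126, 161 and 73.4 CPM, both with control 3 well within the range. The list's median SD was 0.37, and 0.24 without control 3, and its 4 genes 2-fold apart became 2. For delta cells Hhex, their lineage factor, stood at 27.3, 16.1, 22.8 and 29.8 CPM, lowest in control 2 as was Sst, at 5824, 3263, 4975 and 4700 CPM. Of 8 delta-cell identity genes tested 4 were lowest in control 2 (19.5% of all genes tested), and 3 on plain totals.

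Among lists of at least 20 genes, those with the least spread were machines that every cell needs. Proteasome subunits had a median SD of 0.09 over 37 genes, mitochondrial ribosomal proteins 0.11 over 77, core autophagy and lysosome genes 0.11 over 36 and nuclear oxidative phosphorylation genes 0.12 over 45. No gene of the last 3 was 2-fold apart, against 8.4% of all genes tested and 3.01% of those between 10 and 100 CPM. Toll-like and interleukin-1 receptor signalling genes came close, with a median SD of 0.13 over 25. Not every list of common genes was so even: housekeeping and cytoskeleton genes had 0.19 over 20, with 2 of them 2-fold apart. Psma7, a proteasome ring subunit, stood at 98.6, 98.6, 97.3 and 98.3 CPM, and Atg16l1, a scaffold of autophagosome formation, at 41.1, 41.4, 40.6 and 41.2 CPM. Chchd7, a small mitochondrial intermembrane-space protein, had the smallest SD among the named genes, 0.01, at 37.8, 38.1, 38.2 and 37.9 CPM. Taldo1, transaldolase of the pentose phosphate pathway, Npc2, a lysosomal cholesterol carrier, and Nagk, a sugar kinase, were as even. The immunoproteasome subunit Psmb9 was the only proteasome gene 2-fold apart, at 11.96, 14.6, 15.9 and 26.2 CPM, and it was not so without control 1 or without the library labelled control 4.

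Ribosomal protein genes took 1.82%, 1.72%, 1.87% and 1.95% of counts, a narrow range. On the scaled CPM 79 of 82 were highest in control 1 (28.4% of all genes tested), but on plain totals 53 were highest in the library labelled control 4 and 17 in control 1, so their order flips with the scaling. Rplp1, the most abundant per length, stood at 480, 323, 365 and 375 scaled CPM. The list's median SD was 0.22, and 0.11 without control 1.

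Mitochondrially encoded genes were higher in the library labelled control 4 with either scaling, in 11 of 12 genes (27.5% of all genes tested). mt-Co1 stood at 5803, 5591, 5885 and 9231 CPM, mt-Cytb at 3607, 3304, 3428 and 5701 CPM and mt-Nd1 at 2324, 2237, 2299 and 3808 CPM. In each case the first 3 libraries lay close together and the library labelled control 4 stood above them. The list's median SD was 0.34, and 0.06 without the library labelled control 4. The nuclear genes for the same respiratory complexes did not share this order: none of 45 was highest in the library labelled control 4 on the scaled CPM and 2 were on plain totals. The part of cell composition or RNA quality in the higher mitochondrial share was not tested.

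The single exception, mt-Nd3, a subunit of respiratory complex I, had one of the largest spreads of all genes, at 139, 11.8, 147 and 1.07 CPM. A nuclear pseudogene, Gm28438 (chromosome 1, 24612775 to 24613119, minus strand), holds 98.1% of its 31-base words, and its values ran the other way, at 6.21, 125, 9.07 and 198 CPM. Their sum was 145, 137, 156 and 199 CPM, which is again nearly level in control 1 to 3 and higher in the library labelled control 4. The sum therefore did not share the spread of either entry. The first 60 bases of both annotated transcripts show how alike they are, with the differing base in capitals (GENCODE M21 transcripts, 5′ to 3′).
mt-Nd3: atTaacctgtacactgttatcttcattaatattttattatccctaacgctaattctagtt
Gm28438: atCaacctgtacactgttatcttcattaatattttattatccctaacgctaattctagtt
Over 345 bases compared, the 2 transcripts differed at 1, T3C, counted from 1 at the 5′ end with the base of mt-Nd3 first. Another mitochondrial gene, mt-Co2, was counted low beside such a copy and stood at 3.04, 2.94, 3.47 and 6.32 CPM, against 28.8, 21.2, 22.7 and 36.7 CPM in its nuclear copy Gm28661, which shares 99.5% of its words. So were mt-Co3, at 5.96, 5.38, 6.445 and 8.18 CPM, and mt-Atp6, at 5.96, 5.01, 5.67 and 8.02 CPM. Their copies Gm28437 and Gm10925 hold 99.9% and 99.5% of their words. Even summed with its copy, each of these genes stayed far below mt-Co1.

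Interferon-response and antigen presentation genes were low in control 1. Of 22 interferon genes tested 21 were lowest there (27.5% of all genes tested). On plain totals all 22 were. Control 1 was then also lowest for all 24 insulin exocytosis genes and for 44 of 45 nuclear oxidative phosphorylation genes. Counts on plain totals therefore add little here. Gbp3, a guanylate-binding protein, stood at 2.50, 5.61, 5.88 and 10.9 CPM, Stat2 at 22.3, 35.9, 31.8 and 32.9 CPM and Mx1, an antiviral GTPase, at 0.417, 2.11, 2.52 and 1.16 CPM. In this list 8 genes were 2-fold apart (8.4% of all genes tested), 1 without control 1 and 4 without control 3. Of its 22 genes 11 had a mean under 10 CPM, and of all genes between 1 and 10 CPM 18.05% were 2-fold apart. B2m, the light chain of class I molecules, stood at 66.9, 105, 108 and 136 CPM, and H2-K1, a heavy chain, at 507, 636, 662 and 586 CPM. Of 16 class I presentation genes 14 were lowest in control 1 (27.5% of all genes tested), and 15 on plain totals. The same library held the fewest lymphocyte and myeloid counts as a share, and the part of these cells in the values was not tested.

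Among inflammatory signalling genes Il1r1, the receptor for interleukin 1, was the most abundant per length, and stood at 348, 559, 292 and 334 CPM with control 2 high. Traf6, the ubiquitin ligase of Toll-like and interleukin-1 receptor signalling that the series deletes in its other group, stood at 21.3, 30.6, 26.5 and 14.8 CPM, a highest over lowest just under 2-fold that came to 2.01-fold without control 1 or without control 3 and to 1.41-fold without the library labelled control 4. The other TRAF adaptors tested were also modest in level, from Traf1 at 0.454 ± 0.430 TPM to Traf7 at 16.1 ± 4.24 TPM (SD, n = 4).

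Metabolic lists were moderate in spread. Genes of cholesterol and fatty acid synthesis were highest in the library labelled control 4 in 17 of 24 cases with either scaling (27.5% of all genes tested); Hmgcs1, which makes the first committed precursor of the cholesterol pathway, stood at 74.6, 55.6, 55.2 and 134 CPM, and Acly, which supplies cytosolic acetyl-CoA, at 1336, 1622, 1321 and 1483 CPM. The number 2-fold apart was 3, and 0 without the library labelled control 4. Ldha, a lactate dehydrogenase that beta cells keep low, had 9.91 ± 4.41 TPM, against 180 ± 42.5 TPM for Gapdh and 333 ± 76.0 TPM for Pkm. Txnip, a glucose-responsive gene of the antioxidant list, stood at 318, 406, 562 and 264 CPM, highest in control 3.

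Proliferation genes were few in counts and low in control 2. Mki67, a marker of cycling cells, stood at 11.2, 1.804, 6.73 and 8.39 CPM, and Top2a at 11.2, 1.905, 6.66 and 7.604 CPM. Of 29 cell-cycle genes tested 19 were lowest in control 2 (19.5% of all genes tested), and on plain totals 14 were lowest in control 2 and 13 in control 1. The number 2-fold apart was 6 (8.4% of all genes tested), with 1 left without control 2 and 3 without control 1. Of the 29 genes 18 had a mean under 10 CPM, and of all genes between 1 and 10 CPM 18.05% were 2-fold apart. Cyclin D2, Ccnd2, the main D-type cyclin of beta cells, was far higher and steadier, at 878, 806, 931 and 675 CPM.

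Few genes marked control 2 or control 3 alone. Rgs4, a brake on G-protein signalling, was high in control 2, at 38.9, 129, 49.3 and 40.9 CPM, and Lefty1, an antagonist of Nodal, was low there, at 13.9, 4.75, 11.8 and 13.2 CPM. In control 3 Rgs16 was high, at 35.6, 47.3, 107 and 25.6 CPM, as was the defensin Defb1, at 32.8, 33.2, 73.2 and 22.9 CPM, and Cish, a target of cytokine and prolactin signalling, was low, at 25.3, 39.8, 10.02 and 43.02 CPM. Malat1, an abundant nuclear RNA, stood at 845, 1501, 1664 and 2187 CPM, lowest in control 1 and highest in the library labelled control 4, 2.59-fold apart, 1.45-fold without control 1 and 1.97-fold without the library labelled control 4.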

How the data were processed

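The table was deposited by the authors as raw counts per gene, all of them whole numbers (100%), with no normalization and a column for each of 7 libraries, of which 4 were used. The submitters' processing notes list STAR 2.6.1b, RSEM 1.3.1, FastQC and GRCm38 without saying what each did, so the counts may be rounded estimates. Annotation, strand and filters: not given in the sources used here. Overlapping and antisense genes can therefore not be separated. Of 55487 identifiers 55227 matched GENCODE M21, which gave exon lengths for TPM, and 28149 had 0 counts in all 4 libraries. Groups came from the labels.

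CPM used TMM factors fitted on the 4 libraries (edgeR 4.0.16, R 4.3.3) with a pseudocount of 1 on the log scale and a minimum mean CPM of 1. Spread beyond counting error was tested by the goodness of fit of an edgeR Poisson model at an adjusted p of 0.05; DESeq2 1.42.0 gave a further dispersion. The edgeR step was tested on simulated data. With 22161097 to 29917292 counts a library, 95% exact binomial intervals of the shares are narrow and cover counting error only. Shared words are the share of a gene's 31-base transcript words found in another gene. No contrast was made; the 3 Traf6 KO libraries served only for the check of labels and as values beside the ratio of Ins1 to Ins2. Motifs were searched in RefSeq promoter windows. Some genes are not reported here.

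The members and gene lists were chosen with earlier results of these data known. Genes were named by rule: the 5 marker hormones, the 20 protein-coding genes highest per length, up to 4 highest and 2 most variable per list, the 12 most and least variable, up to 5 above and 3 below per library, and 12 set genes. Other genes of the lists were chosen after their values were seen. Alternatives were other scalings, filters, pseudocounts, lengths, denominators, leaving out each library, and settings added after seeing the data (hormone ratios and lists by scaling).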

Additional observations from a re-analysis of the deposited data

Results flagged for a closer look

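In 15 of 118 values examined (named genes, list means and hormone ratios), 1 of the 4 libraries lay so far from its nearest neighbour, as a share of the whole range, that Dixon's 95% limit for 4 samples was passed; chance flags about 1 in 20 groups. That share is no yardstick for the named genes, many of which were chosen because 1 library stood apart, and values within a list are not independent. On the log2(CPM + 1) scale the genes were Marco (ratio 0.994), Siglec1 (0.977), Csf1r (0.966), Plbd1 (0.882) and Dnase1l3 (0.866), all with the library labelled control 4 high, Prss1 (0.880) with control 1 high and Lefty1 (0.840) with control 2 low. Plbd1 stood at 2.71, 2.81, 3.78 and 30.8 CPM and Dnase1l3 at 1.25, 1.64, 2.35 and 42.9 CPM.

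Among list means of log2(CPM + 1), the library labelled control 4 was the high one for myeloid genes (0.898; 3.27, 3.41, 3.30 and 4.66), endothelial genes (0.851; 4.20, 4.12, 4.20 and 4.65) and ghrelin (0.849; 1.81, 1.47, 1.79 and 3.70). Control 1 was the high one for gamma-cell identity (0.885; 7.51, 7.24, 7.27 and 7.26) and for dedifferentiation and progenitor genes (0.843; 3.31, 2.97, 2.91 and 2.90); both directions go with the scaling, since on plain totals the gamma-cell list was lowest in control 1 (7.21, 7.36, 7.33 and 7.38) and the dedifferentiation list highest in control 2 (3.04, 3.06, 2.97 and 3.00). For the mitochondrially encoded list control 2 was the low one (0.919; 7.65, 7.28, 7.68 and 7.68), while on plain totals control 1 was lowest (7.36, 7.39, 7.74 and 7.80); this list holds mt-Nd3, which shares 98.1% of its 31-base words with Gm28438. Ins1 over Ins2 (0.879) and Iapp over Ins2 (0.847) had the library labelled control 4 low.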

How the results depend on the processing

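No paired analysis was possible because no groups were compared. With the replicate left out in turn, the median SD ranged from 0.13 to 0.16 (0.16 with all 4), the common coefficient of variation from 0.233 to 0.287 and the median gene's from 0.159 to 0.189. Genes at least 2-fold apart ranged from 638 (without the library labelled control 4) to 1063, those 4-fold apart from 189 to 297, and those with 1 library apart from 405 to 743, against 409 with all 4; the last rise comes with comparing 3 libraries instead of 4. The acinar share ranged from 1.38% (without control 1) to 7.94%. The beta-hormone share ranged from 18.9% to 20.5% and the mitochondrial share from 1.72% to 2.27%.

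Scaling and filters moved the size of the spread. On plain totals the median SD was 0.25, the common coefficient of variation 0.311 and the median gene's 0.239. With a minimum mean CPM of 10 they were 0.13, 0.210 and 0.146, with 315, 116 and 129 genes 2-fold, 4-fold and 1 library apart. With any count they were 0.12, 0.319 and 0.421. DESeq2 gave a median of 0.136. A pseudocount of 0.25 gave 552 genes 4-fold apart and 631 with 1 library apart, and a 3-fold limit gave 205. The ribosomal protein share was 1.98% without acinar and Reg genes in the total (1.84% with them), the ratio of Sst to Ins2 was 3.34% as counts, and 13 of the 20 leading genes were shared with a ranking by counts. Of 57 named genes with a fold value, 226 results under other scalings and pseudocounts stayed on their side of 2-fold, 1 fell below it (Ins1 on plain totals) and 1 rose above it (Traf6 with a pseudocount of 0.25). With 1 library left out 206 stayed, 20 fell below and 2 rose above.

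Limits: the 4 libraries give 3 degrees of freedom a gene, the minimum CPM leaves out rare transcripts, and how reads of near-identical genes were divided is not in the sources used here. Cell composition was not measured apart from RNA.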

Other observations

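The 186 genes in which the library labelled control 4 stood at least 2-fold above each other library included 5 class II and other H2 genes, 7 immunoglobulin genes and 10 of the myeloid list, and 30 had a mean CPM of at least 10. Cd209b, a lectin of marginal-zone and sinusoidal macrophages, had 0, 0, 0 and 828 counts, and C1qc, a complement subunit, stood at 18.2, 22.3, 19.9 and 100.1 CPM; both were picked after their values were seen. The 18 genes that marked control 3 included the B-cell and germinal-centre genes Pax5 (0.125, 0.334, 5.71 and 1.41 CPM) and Bcl6 (1.29, 1.97, 12.1 and 5.04 CPM) and the lymphocyte homing receptor Ccr7 (0.208, 0.434, 7.15 and 0.785 CPM), also picked after their values were seen. Of the 159 genes that marked control 1, 33 were acinar enzymes and 3 Reg genes; Dmbt1, a mucin-like glycoprotein, stood at 2912, 86.5, 74.3 and 435 CPM and Pdia2, the pancreatic disulfide isomerase, at 730, 18.2, 15.6 and 106 CPM.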
